A study of Homo sapiens with 4 samples.

Results

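The MYC, MAX and MXD network is a small set of transcription factors that share a binding site and a common partner. It was taken here as 10 genes (MYC, MAX, MXI1, MXD1, MXD3, MXD4, MNT, MLX, MLXIP and MGA), each read through the probe sets that the array's annotation assigns to that symbol alone. Of the 10 genes, 9 had such a probe set and 7 were bright enough to be tested, out of 19775 genes with a probe set of 1 symbol and 8721 genes tested. MXD4 had 3 probe sets, all assigned to several symbols, so no value is given for it. The samples were untreated HCT116 cells, an established human colon carcinoma line. They had been grown either as flat monolayers (2 arrays) or as multicellular spheroids (MCS, 2 arrays), compact aggregates whose core receives less oxygen and nutrients than the rim. The study described MCS as holding quiescent and stressed cells. It drew on the array contrast with monolayers, where hypoxia and glycolysis genes rose and mitosis genes fell. Staining, immunoblots and glucose measurements were its other evidence. Whole cultures were read, so rim and core were not separated.

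MYC and MAX form a pair that binds the E-box, a short DNA motif, and activates genes of ribosome production, nucleotide synthesis and cell division. The MXD proteins (MXD1, MXI1, MXD3 and MXD4) and MNT also pair with MAX on E-boxes, but bring the SIN3 corepressor with its histone deacetylases, so that they oppose MYC. MGA joins MAX in a variant Polycomb complex, and MLX pairs with MLXIP (MondoA), which responds to glucose. The network is known for the exchange of MYC for MXD proteins when cells leave the cycle, and for the induction of MXI1 by hypoxia-inducible factors.

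MXI1 and MNT, both partners of MAX that repress, rose in spheroids. MXI1 rose 4.0-fold and MNT 2.06-fold. MAX, the partner that all arms except MLX and MLXIP share, fell by 0.49 on the log2 scale, a call that other settings and single arrays removed. MYC itself was not called, at a log2 difference of -0.44 ± 0.20. Thus 2 of the 7 tested members were called higher and 1 lower (limma, adjusted p under 0.05), where 19.0% of all tested genes were called higher, 20.6% lower and 39.6% in either direction. Groups did not overlap for 5 of the 7 members, a share near the 70.0% found for all genes tested. Differences are log2(signal + 32), spheroid minus monolayer, with standard errors and n = 2 per group, and signals are MAS5 units.

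The arrays had been scaled to 1 average, and each had a trimmed mean signal of 499.9. Bacillus control RNAs were 1.87-fold brighter on the spheroid arrays. Scaling to those controls moved the median of all genes from -0.03 to -0.91, so all differences are relative to the total signal of an array. The ratio of 3′ to 5′ signal of ACTB, a sign of RNA integrity, was 2.64 and 2.34 on the monolayer arrays, as against 2.82 and 3.0 for spheroids, while that of GAPDH was 1.07 and 1.02 on the monolayer arrays and lower, at 0.931 and 0.921, for spheroids. The part of either in the results was not tested. All 5 epithelial markers were tested, with signals of 1213 to 40270. Of 11 markers of fibroblasts, leukocytes and endothelium, 10 had a probe set and 9 of these lay between 1.24 and 199.4 on every array. The exception was the collagen gene COL1A1, at 868.6 and 657.8 in monolayers and 2222 and 2659 in spheroids. The summed signal of these 10 markers was 1421 and 1020 for monolayers, as against 2658 and 2962 for spheroids. COL1A1 made up most of this sum on every array, and the rise of the sum came from COL1A1. The part of the sum in the results was not tested.

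Promoter sequences are shown for the repressor members whose signals lay higher in spheroids (MXI1, MNT and MXD1) and for MLX, which was not called but holds an E-box. Each run is the 250 bases upstream of a RefSeq transcript start in GRCh38.p14, 5′ to 3′ on the strand of the gene. Capitals mark CACGTG, the E-box, which contains ACGTG on each strand, and ACGTG and GCGTG, the cores of the hypoxia response element, which read CACGT and CACGC when they lie on the opposite strand. The coordinates are chr10:110209981-110210230 and chr10:110225746-110225995 for MXI1 (plus strand), chr17:2401061-2401310 for MNT (minus strand), chr2:69914859-69915108 for MXD1 (plus strand) and chr17:42566850-42567099 for MLX (plus strand).
MXI1, first window: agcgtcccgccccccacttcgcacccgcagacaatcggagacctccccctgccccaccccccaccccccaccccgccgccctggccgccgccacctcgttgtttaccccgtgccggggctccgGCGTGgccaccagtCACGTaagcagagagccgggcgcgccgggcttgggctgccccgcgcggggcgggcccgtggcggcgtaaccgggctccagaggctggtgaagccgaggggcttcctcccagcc
MXI1, second window: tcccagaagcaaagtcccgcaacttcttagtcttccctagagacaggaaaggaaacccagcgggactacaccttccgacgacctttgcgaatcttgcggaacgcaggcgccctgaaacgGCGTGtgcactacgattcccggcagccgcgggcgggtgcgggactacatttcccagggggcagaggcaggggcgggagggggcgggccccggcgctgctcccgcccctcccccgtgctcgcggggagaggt
MNT: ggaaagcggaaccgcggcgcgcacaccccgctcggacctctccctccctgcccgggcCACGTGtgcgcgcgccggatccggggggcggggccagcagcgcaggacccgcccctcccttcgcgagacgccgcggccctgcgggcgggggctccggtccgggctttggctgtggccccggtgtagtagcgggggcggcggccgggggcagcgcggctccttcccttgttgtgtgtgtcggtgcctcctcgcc
MXD1: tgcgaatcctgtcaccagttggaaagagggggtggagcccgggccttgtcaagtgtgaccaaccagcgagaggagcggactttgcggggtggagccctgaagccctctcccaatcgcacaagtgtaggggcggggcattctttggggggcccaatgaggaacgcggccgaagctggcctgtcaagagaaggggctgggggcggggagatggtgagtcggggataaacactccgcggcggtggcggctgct
MLX: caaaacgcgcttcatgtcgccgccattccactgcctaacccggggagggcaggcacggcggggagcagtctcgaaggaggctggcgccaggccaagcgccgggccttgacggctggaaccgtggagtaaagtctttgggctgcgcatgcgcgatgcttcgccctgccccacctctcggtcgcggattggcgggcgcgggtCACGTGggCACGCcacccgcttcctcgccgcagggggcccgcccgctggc

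The MXI1 windows held ACGTG 113 bases and GCGTG 127 bases before the first start, and GCGTG 131 bases before the second. MXI1 has a further upstream window, chr10:110207355-110207604, with none of these motifs. The E-box lay 193 bases before the start of MNT and 50 bases before that of MLX. None of the motifs lay in the MXD1 window. ACGTG or GCGTG also lay in windows of MAX, MGA, MLX and MLXIP, which were not called higher. The same held for MXD3 and MXD4, which were not tested. In all, 9 members had 14 windows, of which 3 held CACGTG (one each in MNT, MLX and MXD4) and 10 held ACGTG or GCGTG. Among all 35116 windows of the same length, 6.34% held CACGTG, 18.5% ACGTG, 32.2% GCGTG and 43.2% either core. These matches describe the letters only. MYC was not in the promoter table.

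MYC was read by 1 probe set (202431_s_at), with signals of 9530 and 15800 in monolayers and 8165 and 10060 in spheroids. The higher monolayer array stood above all others, the lower monolayer array lay between the spheroid arrays, and the groups overlapped. The means were 12660 ± 4434 (SD) and 9113 ± 1340. The log2 difference was -0.44 ± 0.20, with a 95% interval from -0.86 to -0.01 (limma, adjusted p = 0.0966). Without monolayer replicate 1 it was -0.80, and without monolayer replicate 2 it was -0.07. Either fit leaves 1 monolayer array, so the spread between monolayer cultures is not measured in it. The MYC difference thus varied with the monolayer culture that was left out. Because whole cultures were hybridized, fewer cells expressing a gene and less RNA per cell cannot be told apart, here or for any other member.

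MAX, a partner of MYC, the MXD proteins, MNT and MGA, was read by 5 probe sets, 3 of them tested. The brightest (209332_s_at) had signals of 2617 and 3359 in monolayers and 2033 and 2175 in spheroids. Both spheroid arrays lay below both monolayer arrays. The log2 difference was -0.49 ± 0.17, with an interval from -0.86 to -0.12 (limma, adjusted p = 0.0361). The other tested probe sets of MAX differed by -0.20 ± 0.25 and -0.12 ± 0.27, were not called and overlapped between groups. Adjusted over all 15911 tested probe sets rather than over genes, the brightest was not called either (limma, adjusted p = 0.0506). The call was lost without spheroid replicate 1 (-0.44, adjusted p = 0.126), without monolayer replicate 2 (-0.31, adjusted p = 0.337) and without spheroid replicate 2 (-0.54, adjusted p = 0.0688). It passed the threshold in 9 of 16 alternatives.

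MXI1, an MXD protein that replaces MYC on MAX, had the largest difference of the tested members. Its 1 probe set (202364_at) had signals of 2034 and 1915 in monolayers and 8921 and 6889 in spheroids. The monolayer arrays were close together, and the dimmer spheroid array was far above both. The means were 1975 ± 84.1 and 7905 ± 1436, a 4.0-fold increase. The log2 difference was 1.97 ± 0.16, with an interval from 1.63 to 2.32 (limma, adjusted p = 2.71e-06). MXI1 ranked at place 140 of the 8721 tested genes, counted from the largest increase. It was called higher in 17 of 17 alternatives, at differences from 1.08 to 2.16, the lowest with scaling to the Bacillus controls (adjusted p = 0.0376).

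MXD1, the founding MXD protein, which is known for its induction during differentiation, was too dim to be tested. Its brightest probe set (226275_at) had signals of 169.2 and 72.8 in monolayers and 331.6 and 484.3 in spheroids. The next (228846_at) had signals of 134.4 and 79.5 in monolayers and 431.3 and 401.7 in spheroids. Both probe sets thus had the spheroid arrays above the monolayer arrays, at ratios of the means of 3.37 and 3.89. A further MXD1 probe set, at 5.83 to 16.6, lay within the range of unspiked bacterial control probe sets (4.47 to 35). The log2 means of the brightest probe set differed by 1.58 (not tested), by 1.11 to 2.05 when 1 array was left out, and by 0.80 with scaling to the Bacillus controls. With the filter lowered to a mean above 100 units, MXD1 was called higher (1.58 ± 0.36, limma, adjusted p = 0.00542), as it was with no filter (adjusted p = 0.0455).

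MXD3, an MXD protein described in proliferating cells, was also below the filter. Its 1 probe set (221250_s_at) had signals of 376.3 and 132.3 in monolayers and 332.4 and 308.2 in spheroids. The spheroid arrays lay between the monolayer arrays. The log2 means differed by 0.44, and the sign turned without monolayer replicate 2 (-0.21). With a filter at 100 units it was not called (limma, adjusted p = 0.404).

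MNT, a MAX partner that represses and is expressed in most cells, was read by 2 probe sets, 1 of them (204206_at) tested. Its signals were 1195 and 1192 in monolayers and 2268 and 2656 in spheroids. The monolayer arrays were nearly equal, and both spheroid arrays lay well above them. The log2 difference was 1.02 ± 0.17, with an interval from 0.65 to 1.39 (limma, adjusted p = 0.000588), and leaving out 1 array gave 0.91 to 1.13. MNT ranked at place 622 of 8721 genes from the largest increase. It was called higher in 16 of 17 alternatives, the exception being scaling to the Bacillus controls (0.13, adjusted p = 0.808). The dim probe set of MNT, at 32 to 75.5, overlapped between groups.

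**Figure D1:**
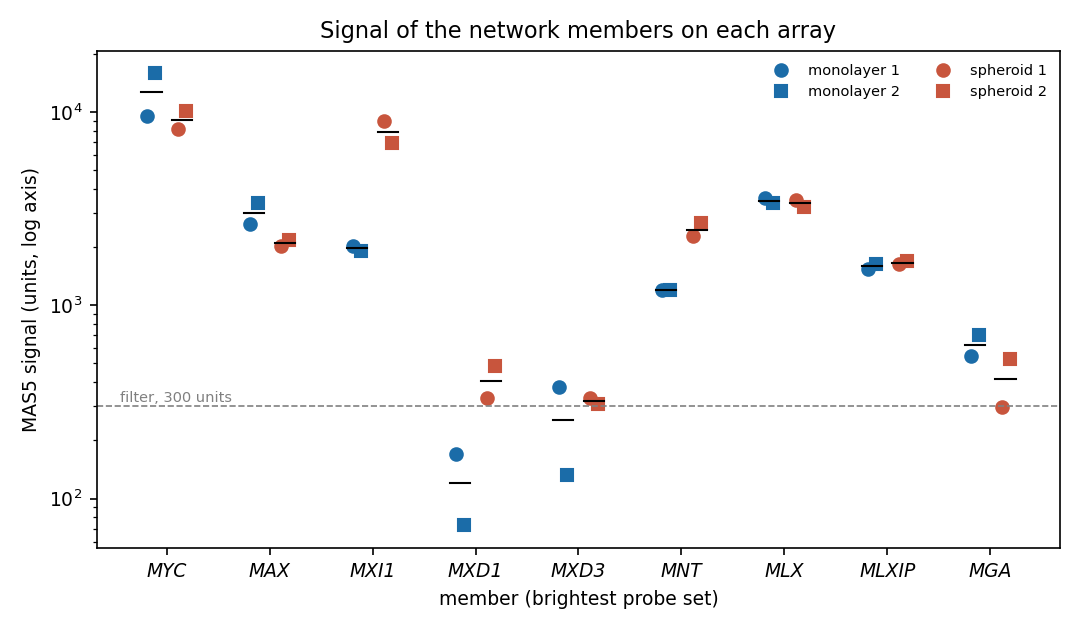
MAS5 signal (y, log axis) of the brightest probe set of each member (x) on the 2 monolayer arrays (blue) and the 2 spheroid arrays (red), with circles for replicate 1, squares for replicate 2, bars for the group means and a dashed line at the filter of 300 units. The spheroid arrays of MXI1 (8921 and 6889) and MNT (2268 and 2656) lie far above their monolayer arrays, whereas those of MYC and MXD3 overlap.

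MGA, the large scaffold that brings MAX to a variant Polycomb complex, was read by 4 probe sets, 2 of them tested. The brighter (212945_s_at) had signals of 548.0 and 697.1 in monolayers and 299.1 and 529.7 in spheroids. The groups did not overlap, although spheroid replicate 2 lay just under monolayer replicate 1. The log2 difference was -0.59 ± 0.28, with an interval from -1.19 to 0.01, and was not called (limma, adjusted p = 0.109). It was -0.21 without spheroid replicate 1 and -0.97 without spheroid replicate 2, each with 1 spheroid array left. The other tested probe set of MGA, at 337.4 and 361.5 in monolayers and 307.6 and 360.6 in spheroids, differed by -0.06 ± 0.25 and overlapped.

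The glucose-responsive arm was not called. MLX, the partner of MondoA, was read by 6 probe sets, 3 of them tested. The brightest (213708_s_at) had signals of 3587 and 3367 in monolayers and 3513 and 3229 in spheroids, with overlapping groups. Its log2 difference was -0.04 ± 0.15, with an interval from -0.36 to 0.27 (limma, adjusted p = 0.831). The other tested MLX probe sets differed by 0.04 ± 0.15 and -0.28 ± 0.19.

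MLXIP, which encodes MondoA, was read by 4 probe sets, 2 of them tested. Its brightest (202519_at) had signals of 1541 and 1630 in monolayers and 1634 and 1685 in spheroids. The spheroid arrays lay above the monolayer arrays by a margin smaller than the spread within a group. The log2 difference of MLXIP was 0.06 ± 0.17, with an interval from -0.30 to 0.43 (limma, adjusted p = 0.784), and that of the other tested probe set was 0.05 ± 0.22. Neither the interval of MLX nor that of MLXIP reached the size of the MNT difference in either direction.

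The 9 measured members had 27 probe sets, of which 13 passed the filter. Of these, 2 were called higher (MXI1 and MNT) and 11 were not called (limma, adjusted over all probe sets tested). No member probe set was called lower, and 1 had an unadjusted p under 0.05 in that direction, the brightest of MAX. Among all probe sets tested, 33.4% were called, 16.8% higher and 16.6% lower. The 4 members with several tested probe sets were MAX, MLX, MLXIP and MGA. Within MAX and MGA, the brightest probe set had the lowest difference and the others were nearer to 0. The 14 probe sets that did not pass ranged up to 484.3, the brighter spheroid array of MXD1, and 7 of them were below 100 on every array.

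**Figure D2:**
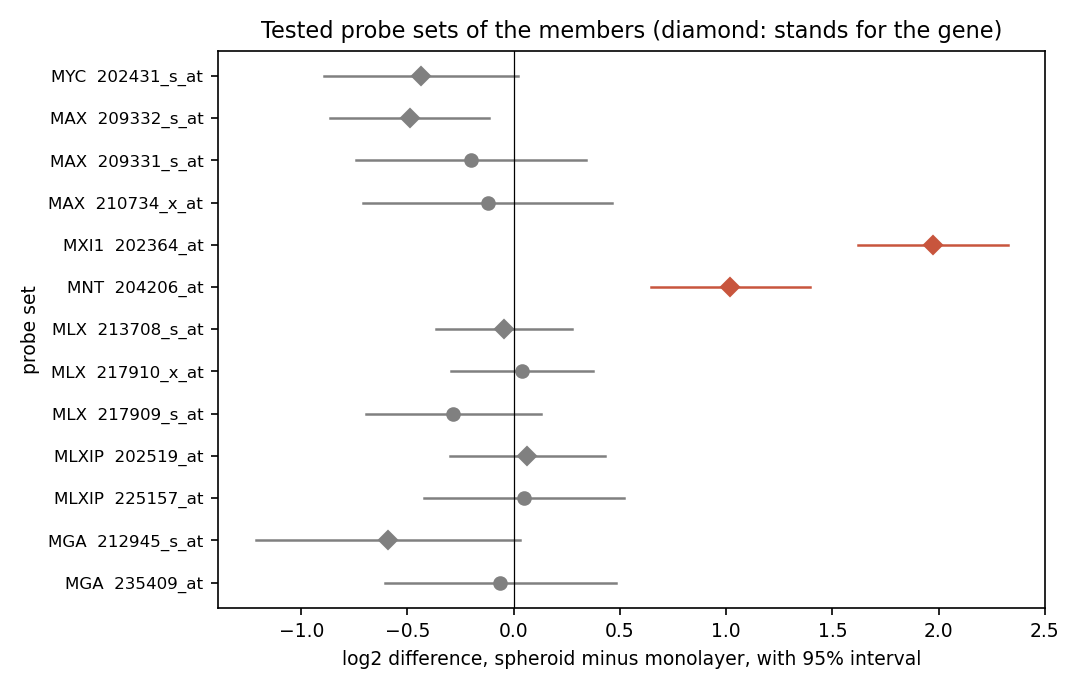
Log2 difference between spheroids and monolayers (x) with its 95% interval for the 13 tested probe sets of the members (y), with diamonds for the probe set that stands for the gene. Red marks a call in the fit over all probe sets, reached by MXI1 and MNT only, while the intervals of the other 11 are drawn in grey.

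The other genes of the same families stayed below the filter on all 13 of their probe sets. The MYC paralogue MYCN had 10 probe sets with signals of 1.07 to 95.9. MYCL, a further paralogue, had 2 probe sets, and the brighter had signals of 127 and 97.3 in monolayers and 207 and 87.7 in spheroids. The MondoA paralogue MLXIPL (ChREBP) had signals of 19.7 and 156 in monolayers and 252 and 176 in spheroids.

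Since the members compete for MAX or share its site, each was also set against MAX within its array, which nearly removes the scaling of arrays. These log2 ratios compare probe sets of different genes, so they are read only as differences between groups and were not tested. With 2 arrays against 2, an exact permutation p cannot be under 0.333. The MYC ratio was 1.85 and 2.22 on the monolayer arrays and 1.99 and 2.19 on the spheroid arrays. The groups overlapped, and the means differed by 0.05. For MXI1 it was -0.36 and -0.80 on the monolayer arrays and 2.12 and 1.65 in spheroids, a difference of 2.46. MNT had ratios of -1.11 and -1.47 in monolayers and 0.16 and 0.29 in spheroids, a difference of 1.51. Both repressors thus stood higher against MAX on each spheroid array than on either monolayer array, whereas MYC did not.

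The MXD1 ratio to MAX was -3.72 and -5.02 on the monolayer arrays and -2.51 and -2.10 in spheroids, a difference of 2.07. For MXD3 the difference was 0.93, with spheroid replicate 2 and monolayer replicate 1 at the same ratio of -2.70. MLX and MLXIP, which do not pair with MAX, differed by 0.44 and 0.55 relative to it, with the spheroid arrays above. Both ratios include the lower MAX signal of the spheroid arrays, and neither gene was called by itself. MGA differed by -0.10 and overlapped. With the mean of the tested probe sets of each gene in place of the brightest, the differences were smaller, at 1.29 for MNT, 0.17 for MLX and 0.33 for MLXIP, and that of MYC was -0.17.

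**Figure D3:**
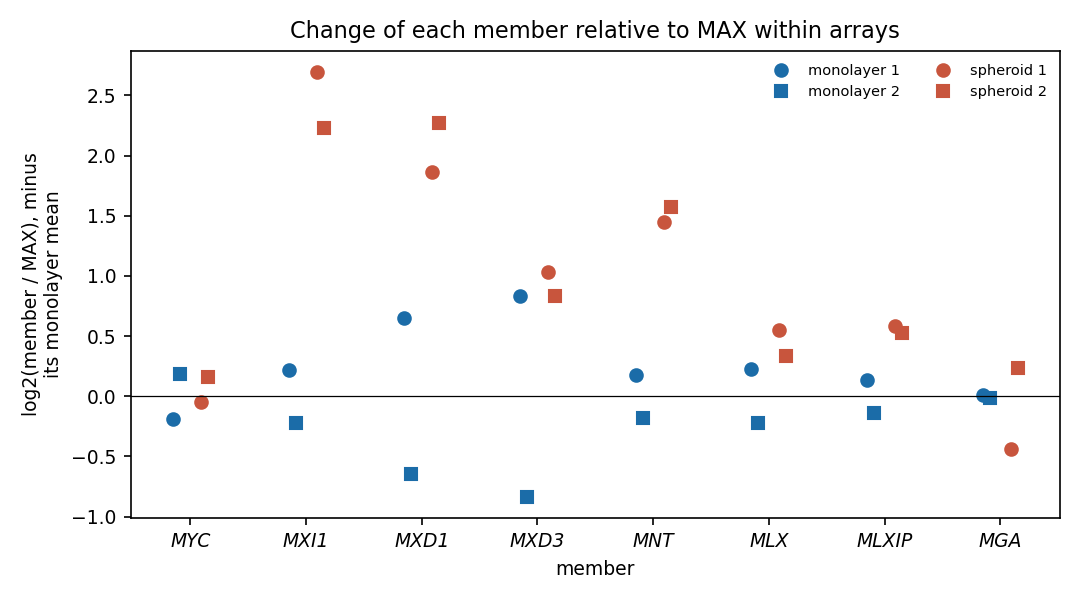
Log2 ratio of each member (x) to MAX within an array, minus the mean ratio of the monolayer arrays (y), for the 2 monolayer arrays (blue) and the 2 spheroid arrays (red), with circles for replicate 1 and squares for replicate 2. MXI1, MXD1 and MNT separate by 2.46, 2.07 and 1.51 between group means, and MYC (0.05) and MGA (-0.10) do not separate.

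Proteins that work with the network were called in both directions, at shares near those of all genes. The 4 partner lists together held 53 genes, of which 49 were tested, 7 rose and 12 fell (limma), and the median log2 difference was -0.11 beside -0.03 for all genes tested, of which 19.0% were called higher and 20.6% lower. None of them reached a 4-fold difference in signal on the fitted scale, nor did MXI1 (1.97), which differed by more than any of them. MYC coactivators, which open chromatin, had 3 of 12 tested genes called lower (25.0%, near the 20.6% of all genes): WDR5, a reader of methylated histone H3 (-0.99 ± 0.19), and the helicases RUVBL1 (-0.76 ± 0.14) and RUVBL2 (-0.75 ± 0.13). No coactivator was called higher by limma, and 1 had an unadjusted p under 0.05 in that direction.

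Among factors that set the stability of MYC protein, 2 of 14 tested genes were called higher (14.3%, beside 19.0% of all genes) and 4 lower (28.6%, beside 20.6%), with a median of -0.12. SKP2, a ubiquitin ligase subunit that targets MYC, fell by 1.52 on the log2 scale (SE 0.16). CIP2A and AURKA, both known to stabilize MYC, fell by 1.5 (SE 0.23) and 1.36 (SE 0.14). CIP2A passed the filter only through its monolayer arrays (means of 831.8 in monolayers and 274.6 in spheroids). GSK3B, the kinase that marks MYC for degradation, rose by 0.69 ± 0.17, a call lost without spheroid replicate 2 (0.56, adjusted p = 0.0566) and turned with scaling to the Bacillus controls (-0.20).

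The SIN3 corepressor, which the MXD proteins and MNT recruit, had 3 of 14 tested genes called higher and 3 lower, with a median of -0.06. Either count is 21.4%, near the 19.0% and 20.6% of all genes. The histone-binding subunit ING1 rose by 0.86 ± 0.20, the scaffold SIN3B by 0.68 ± 0.24 and SUDS3 by 0.57 ± 0.20, while BRMS1 fell by 0.74 (SE 0.21). Without _x_at and _s_at probe sets, which can match several transcripts, ING1 was at 0.45 and not called (adjusted p = 0.256). With scaling to the Bacillus controls ING1, SIN3B and SUDS3 were at -0.03, -0.16 and -0.30. SIN3B was not called without any 1 of the 4 arrays (0.59 to 0.78, adjusted p = 0.0609 to 0.178). SUDS3 lost its call without either monolayer array (0.57 each) or without spheroid replicate 2 (0.43). BRMS1 lost it without monolayer replicate 1 (-0.47) or spheroid replicate 2 (-0.65). With no filter, SIN3B (0.68), SUDS3 (0.57) and BRMS1 (-0.74) were not called. With quantile normalization SIN3B and SUDS3 were not called (0.51 and 0.50), nor was SUDS3 with the mean of its tested probe sets (0.45).

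In the MGA complex PRC1.6, 2 of 12 tested subunits were called higher (16.7%, beside 19.0% of all genes) and 4 lower (33.3%, beside 20.6%), with a median of -0.18. TFDP1, the partner of E2F proteins, fell by 1.01 (SE 0.13), WDR5 was as above, and the Polycomb subunit PCGF6 fell by 0.89 (SE 0.19). TFDP2, the paralogue of TFDP1, rose by 0.64 ± 0.19. It was no longer called once monolayer replicate 1 (0.53) or spheroid replicate 1 (0.56) was left out, and its sign turned with scaling to the Bacillus controls (-0.23). With the mean of its tested probe sets TFDP2 was at 0.51 and not called (limma, adjusted p = 0.0567). Without _x_at and _s_at probe sets it was at 0.51 and not called either (limma, adjusted p = 0.102). HDAC2, which the PRC1.6 and SIN3 lists share, fell by 0.49 (SE 0.13).

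The remaining called partners were named after their values were seen. RYBP of PRC1.6 rose by 0.57 ± 0.15 (limma, adjusted p = 0.0113) and the phosphatase subunit PPP2R5A by 0.64 ± 0.22 (limma, adjusted p = 0.0353). The deubiquitinase USP36 fell by 0.58 (SE 0.19, limma, adjusted p = 0.0308) and the SIN3 subunit RBBP7 by 0.36 (SE 0.12, limma, adjusted p = 0.0385). These calls were not followed gene by gene over the alternatives. With scaling to the Bacillus controls, which lowered the median of all genes tested, 0 partner genes were called higher by limma and 22 lower. The shares of all genes called under that scaling are not given here, so these counts are not read as a result about the partners.

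Genes known as activated by MYC fell in spheroids, although MYC itself was not called. Of 41 such genes, 33 were tested, 27 fell and 1 rose (limma), and the median log2 difference was -0.78 beside -0.03 for all genes tested. The share called lower was 81.8%, against 20.6% of all genes. This list, like the others here, was chosen with earlier results of these data known, so the excess is not independent of them. The count called lower was 18 to 30 over all alternatives. The alternatives differ in the genes tested, and scaling to the Bacillus controls lowered the median of all genes. Shares of all genes are not given for them, so this range is not read as a range of the excess. CDC25A, a phosphatase that opens the way to DNA replication, had signals of 763.6 and 1339 in monolayers and 258.0 and 320.7 in spheroids. Its difference was -1.71 ± 0.27 (limma, adjusted p = 0.000443). The spheroid mean of CDC25A (289.3) was under the filter of 300 units, so this gene passed only through its monolayer signals. CTPS1, which makes CTP, was at 3038 and 3437 in monolayers and 872.9 and 1099 in spheroids, a difference of -1.69 ± 0.18. The groups of CDC25A and CTPS1 did not overlap. The spermidine synthase SRM fell by 1.32 (SE 0.19) and the ribosome assembly factor MRTO4 by 1.24 (SE 0.15).

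The 1 member of that list called higher was LDHA, lactate dehydrogenase, which is also known to be induced by hypoxia and was named after its values were seen. It had signals of 40980 and 44460 in monolayers and 52690 and 56770 in spheroids, a difference of 0.36 ± 0.10 (limma, adjusted p = 0.0116). The LDHA call was lost without spheroid replicate 1 (0.41, adjusted p = 0.058) or spheroid replicate 2 (0.30, adjusted p = 0.145), and its sign turned with scaling to the Bacillus controls (-0.55). The 5 genes of the list that were not called were NPM1 (0.03), UBTF (-0.26), HSPD1 (-0.05), APEX1 (-0.24) and IMPDH2 (0.11), likewise named after their values were seen. Many genes of the list serve growth or division in general, and whether MYC or its antagonists set their levels was not tested.

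Genes known as repressed by MYC lay on the other side. Of 13 listed, 6 were tested and 5 were called higher (83.3%, beside 19.0% of all genes), with a median of 1.0. No gene of this list was called lower by limma, and 1 (CLU, -0.44) had an unadjusted p under 0.05 in that direction. NDRG1, which is also known to be induced by hypoxia, had signals of 996.9 and 1176 in monolayers and 36220 and 31080 in spheroids, a difference of 4.91 ± 0.14. The growth arrest gene GADD45A rose by 1.47 ± 0.19 and the cyclin-dependent kinase inhibitor CDKN1B by 0.87 ± 0.17, and with scaling to the Bacillus controls neither was called (0.57 with adjusted p = 0.264, and -0.02). DDIT3, a transcription factor of the stress response, rose by 1.12 ± 0.28, a call lost without spheroid replicate 1 (0.72, adjusted p = 0.0937) and with scaling to the Bacillus controls (0.27, adjusted p = 0.615). CDKN1A, the inhibitor p21, rose by 0.80 ± 0.18, and it and CLU were named after their values were seen. Each of the 6 tested genes had a monolayer mean above 300 units, the lowest that of DDIT3 (336.6). The other listed genes were not tested, so the count over the 6 tested genes does not describe the whole list.

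MondoA targets were measured with few genes. Of 4 listed, 3 were tested and 2 were called higher (66.7%, beside 19.0% of all genes), with a median of 1.57, while no gene was called lower by limma and 0 had an unadjusted p under 0.05 in that direction. ARRDC4, an arrestin-like protein that limits glucose uptake, had signals of 463.5 and 532.5 in monolayers and 2751 and 2697 in spheroids, a difference of 2.38 ± 0.18. Hexokinase 2 (HK2), also known to be induced by hypoxia, rose by 1.57 ± 0.23, a call lost with scaling to the Bacillus controls (0.68, adjusted p = 0.188). PFKFB3 was not called (0.29 ± 0.18, limma, adjusted p = 0.222), and TXNIP did not pass the filter. MLXIP and MLX, whose products activate these genes, were at differences of 0.06 and -0.04.

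**Figure D4:**
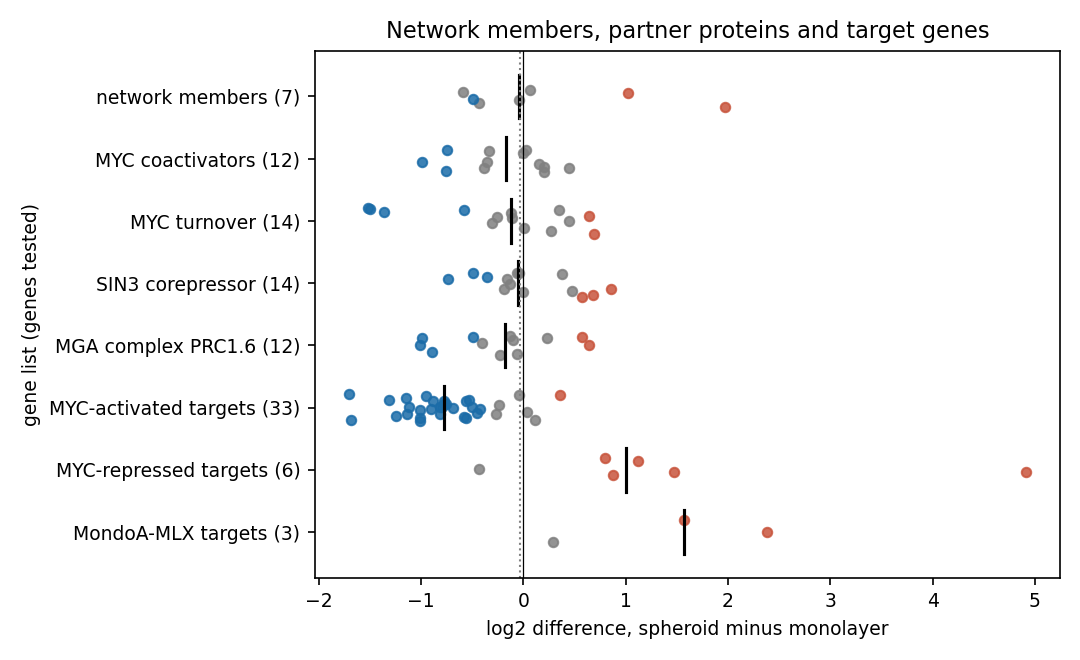
Log2 difference between spheroids and monolayers (x) of each tested gene in the network and in the lists of partners and targets (y, number tested in brackets), with red for called higher, blue for called lower, grey for not called, a black bar for the median of a list and a dotted line for the median of all genes tested (-0.03). Most MYC-activated targets lie to the left (median -0.78) and most tested MYC-repressed targets to the right (median 1.0), while the partner lists centre near 0. With scaling to the Bacillus controls the median of all genes is -0.91 and those of the MYC-activated and MYC-repressed lists are -1.67 and 0.12.

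Across the alternatives, MXI1 and MNT stayed above 0 and MAX, MYC and MGA below 0 in every setting that gave a value. MLX and MLXIP lay near 0 apart from scaling to the Bacillus controls, where they were at -0.94 and -0.82, close to the median of all genes. With that scaling MYC was at -1.34, MAX at -1.38 and MGA at -1.43, all called lower, and of the members MXI1 alone was called higher. The lower calls include the shift of all genes, so they are not read as changes of these genes alone. That shift rests on geometric mean control signals of 746.4 and 897.3 on the monolayer arrays and 1871 and 1255 on the spheroid arrays. Among the 7 tested members, MXI1 had the highest difference and MNT the next under each scaling.

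**Figure D5:**
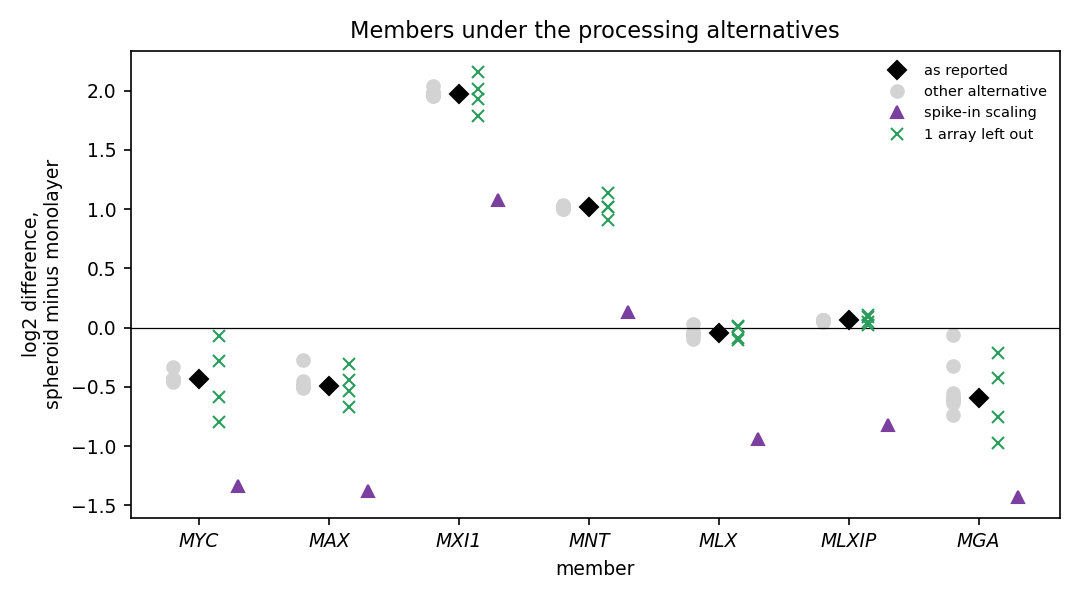
Log2 difference between spheroids and monolayers (y) of the 7 tested members (x), with black diamonds for the reported value, grey circles for other alternatives, purple triangles for scaling to the Bacillus controls and green crosses for each array left out in turn. MXI1 stays between 1.08 and 2.16, MNT drops to 0.13 only with scaling to the Bacillus controls, and the crosses of MYC spread from -0.80 to -0.07.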

How the data were processed

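HCT116 cells were grown as monolayers or spheroids, described by the study as independent cultures, and RNA of each of the 4 cultures was hybridized to 1 Affymetrix array. The authors normalized with MAS5, and the deposited values are linear signal intensities per probe set. Detection calls were not used here, and for the version of MAS5 the sources used here give none. Arrays had been scaled to a common mean, which hides any change in total RNA per cell, and within-group correlations across genes were 0.979 and 0.984.

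Of 54675 probe sets, 62 were controls, 41091 had 1 gene symbol in the platform annotation, 1801 had several and 11721 were not listed. Matching to the RefSeq gene table of GRCh38.p14 changed 0 symbols. Signals were taken as log2(signal + 32), a scale on which dim genes differ less. A mean above 300 was required of a probe set, and the brightest stood for its gene. limma (version 3.58.1, R 4.3.3) compared the groups with lmFit and eBayes with an intensity trend, two-sided, with Benjamini-Hochberg adjustment over all 8721 genes or 15911 probe sets. Residual degrees of freedom were 2, to which the prior added 10.5. Calls were made at an adjusted p under 0.05. The script was tested on simulated data.

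The members and the gene lists were chosen with earlier results of these data known. All members and their relatives are named, and of each other list up to 4 called genes with the largest absolute difference. Genes outside this rule, PFKFB3 and TXNIP included, were named after their values were seen. The processing was varied in the filter, the added constant, the scaling, the choice of probe set, the trend and a replicate block, and each array was left out in turn. Scan times and hybridization batches were not given in the labels, so no batch was examined.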

Additional observations from a re-analysis of the deposited data

How the results depend on the processing

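MXI1 was called higher in 17 of 17 alternatives and MNT in 16 of 17. The count of members called higher (2) was 1 with scaling to the Bacillus controls. The count of members called lower (1, MAX) was 0 with no filter, quantile normalization, the mean of the tested probe sets, _x_at and _s_at probe sets left out, or no intensity trend, 3 with scaling to the Bacillus controls, and 0 to 2 with 1 array left out. Under these settings the MAX difference was -0.49 (adjusted p = 0.0822, no filter), -0.45 (0.0527, quantile), -0.27 (0.312, mean of probe sets) and -0.49 (0.0718, no trend). Of the probe sets of the members, 4 were called higher with the filter at 100 units and 1 with scaling to the Bacillus controls, in place of 2. In place of 0, 1 was called lower with the filter at 500 units or with arrays centred on the median, 4 with scaling to the Bacillus controls, and 0 to 2 with 1 array left out.

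Replicates of the groups share the numbers 1 and 2, but nothing says that the numbers pair the cultures, and the deviations of same-numbered arrays correlated at 0.32. With the replicate block, 3 members (MYC, MAX and MGA) and 3 of their probe sets were called lower, and 1 MYC-repressed target.

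Partner genes called higher (7) numbered 4 with no filter, 0 with scaling to the Bacillus controls, 3 without _x_at and _s_at probe sets and 2 to 6 with 1 array left out, and those called lower (12) numbered 22 and 7 with scaling to the Bacillus controls and without those probe sets. The 1 MYC-activated target called higher, LDHA, gave way to 0 with no filter, scaling to the Bacillus controls, no trend or those probe sets left out, and 0 to 1 with 1 array left out. MYC-repressed targets called higher (5) numbered 1 with scaling to the Bacillus controls and 3 without those probe sets, and 1 was called lower, in place of 0, with the filter at 100 units or scaling to the Bacillus controls, and 0 to 1 with 1 array left out. MondoA targets called higher (2) numbered 1 with scaling to the Bacillus controls. Signs turned with that scaling for GSK3B (-0.20), SIN3B (-0.16), SUDS3 (-0.30), ING1 (-0.032), TFDP2 (-0.23), CDKN1B (-0.022), LDHA (-0.55) and MXD3 (-0.36), and for MXD3 with 1 array left out (range -0.21 to 1.10, the lowest without monolayer replicate 2). With the mean of the probe sets, the differences relative to MAX were -0.17 for MYC, 1.29 for MNT, 0.17 for MLX and 0.33 for MLXIP. The cause of these shifts was not tested. Scaling to the Bacillus controls lowered the median of all genes tested, and counts under it are not set beside shares of all genes. Without _x_at and _s_at probe sets MYC, MAX and MLX had no tested probe set and no value.

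Precision was limited by 2 arrays per group, with a median standard error of 0.19 on the log2 scale. Leaving out an array leaves a group with 1 array, whose spread is then taken from the other group and from the prior. Signals near those of the unspiked bacterial controls (4.47 to 35) have no order, and transcripts say nothing of the proteins.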
